A study of Homo sapiens with 3 samples.

Results

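The genes described here encode proteins that the liver secretes into blood: carriers of hormones, vitamins and metals, acute phase proteins, and circulating protease inhibitors, most of them serpins. They were taken by name, 36 of the 61533 genes in the deposited tables, and the near-identical pairs ORM1 with ORM2 and SAA1 with SAA2 were summed, which leaves 34 entries. RNA with poly(A) tails was sequenced from Hep3B, a line established from 1 human hepatocellular carcinoma, with 1 library for each of 3 conditions. All cells carried a genotype labelled WT and grew in DMEM with fetal bovine serum. The first library came from 20% oxygen with no agent, the second from 1% oxygen in a flushed chamber with no agent, and the third from 1% oxygen with sodium oxamate, which blocks lactate dehydrogenase. The design text names 48 hours, and whether that time holds for every condition is not given in the sources used here. With 1 library per condition there is no replicate check and no p-value for any difference below.

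Albumin, alpha-fetoprotein and the vitamin D-binding protein descend from a common ancestral gene and carry small molecules in plasma. In an acute phase response, cytokines such as IL-6 and IL-1 make hepatocytes secrete more of the positive acute phase proteins and less of the negative ones. Serpins inhibit a protease by trapping it on a reactive loop, although some family members, such as the cortisol carrier, inhibit none.

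The libraries held 24826365 to 27412147 fragments assigned to genes. Mitochondrial genes took 8.46% of fragments in 20% oxygen, 5.80% in 1% oxygen and 7.21% with oxamate. Levels of a gene between libraries are given in CPM, fragments put on a common library size by the trimmed mean of M values. Levels between genes are compared in FPKM, which corrects for exon length. The size rule used throughout calls a gene higher or lower when its 2 levels differ 2-fold or more and the larger rests on no fewer than 50 fragments. Brackets give 95% exact intervals for counting error alone, and with 1 library per condition they leave out the spread between cultures. No molecular identifiers mark single molecules, so copies of a molecule are counted separately and the intervals can be too narrow. Of 14 hepatocyte markers, 12 had at least 50 fragments in some library, and CYP3A4 and G6PC1, enzymes of mature hepatocytes, had at most 4. The hepatocyte list summed to 31745 CPM in 20% oxygen, 20245 in 1% oxygen and 12094 with oxamate, and it holds ALB, SERPINA1 and TTR. ALB alone was 18295, 8888 and 6810 CPM of these sums. Of its 11 markers with at least 50 fragments in either library, 1 was higher, 5 lower and 5 neither in 1% oxygen against 20% oxygen. Over all genes, 10.8% were higher and 8.07% lower in that step. Blood cell markers summed to 35.1 to 63.0 CPM, mostly LYZ, with CD3E, MS4A1, HBB, HBA1 and CD163 at 0 in every library. Endothelial markers summed to 1.70, 8.60 and 21.2 CPM, mostly PECAM1, with KDR, CLEC4G, ERG and EMCN at 0. Stellate markers summed to 33.2 to 39.1 CPM with ACTA2 and DCN at 0, and 4 of the 10 had at least 50 fragments in some library. In 20% and 1% oxygen, LUM was at 15.3 and 14.9 CPM and PDGFRB at 12.2 and 15.8 CPM. None of the 4 passed the size rule in 1% oxygen against 20% oxygen. With oxamate against 1% oxygen, 2 of the 4, PDGFRB among them, were at least 2-fold lower and none was higher. Over all genes, 5.07% were lower and 5.92% higher in that step. Cholangiocyte markers summed to 893 to 1382 CPM. These lists differ between the libraries alongside the plasma protein genes, and their part in the results was not tested. In bulk RNA, fewer cells expressing a gene and less RNA per cell cannot be told apart.

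The plasma protein genes took a smaller share of the library in 1% oxygen than in 20% oxygen, and a smaller one again with oxamate. Together they made up 2.83% of all fragments in 20% oxygen, 2.08% in 1% oxygen and 1.44% with oxamate. ALB alone, the gene of albumin, accounted for 1.73%, 0.935% and 0.686%. The other genes of the set together took 1.11%, 1.14% and 0.754%, so in net terms the smaller share in 1% oxygen lay in ALB. Within that sum, genes differed in both directions in 1% oxygen. AHSG went from 0.241% to 0.370% and A2M from 0.00898% to 0.0550%, while ITIH2 went from 0.0848% to 0.0275% and GC from 0.0687% to 0.0293%. With oxamate, ALB and the sum of the others were both smaller. Groups differed too: the fetuins with HRG took 0.241%, 0.371% and 0.137%, and the haem and copper binding genes 0.00730%, 0.107% and 0.108%. In the latter group the larger share lay in the copper binding CP, at 0.00493%, 0.106% and 0.108%. The haem binding HPX went the other way, at 0.00229%, 0.000905% and 0.000379%.

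**Figure D1:**
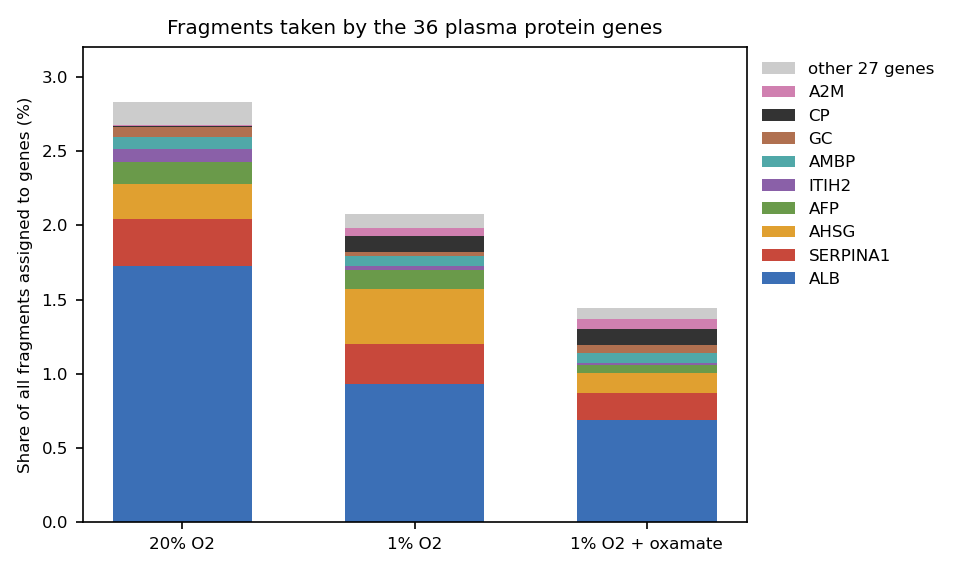
Share of all fragments assigned to genes (%, stacked bars) that the 36 plasma protein genes took in each of the 3 Hep3B libraries. ALB, in blue, is the tallest block throughout, and the whole stack goes from 2.83% to 2.08% and 1.44%.

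In 1% oxygen against 20% oxygen, 3 of the 22 entries with at least 50 fragments in some library were at least 2-fold higher, where 10.8% of all 13549 genes measured were. In the same comparison 8 of the 22 were at least 2-fold lower, where 8.07% of all genes were. The median log2 ratio was -0.46 over the 22 entries and -0.11 over all genes. Scaling by total fragments would move the split over all genes from 1468 higher and 1093 lower to 1775 and 751. The 3 higher entries were CP, A2M and AZGP1. The 8 lower ones were ORM1 with ORM2, TTR, RBP4, ITIH2, HPX, GC, SERPINF2 and ALB.

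With oxamate added in 1% oxygen, none of the 22 entries was at least 2-fold higher, where 5.92% of all 13733 genes measured were. There were 7 entries at least 2-fold lower, where 5.07% of all genes were: ORM1 with ORM2, ITIH2, SERPINF2, AHSG, AFP, HPX and SERPINA4. The median log2 ratio was -0.73 over the entries and -0.01 over all genes. Both steps share the library from 1% oxygen, so a value that is off in that library moves them in opposite ways. Oxamate in 1% oxygen against 20% oxygen skips the shared library, and there 3 entries were higher, where 15.4% of all genes were, and 11 were lower, where 15.3% were. The median over the entries in that contrast was -1.13, and over all genes -0.11.

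**Figure D2:**
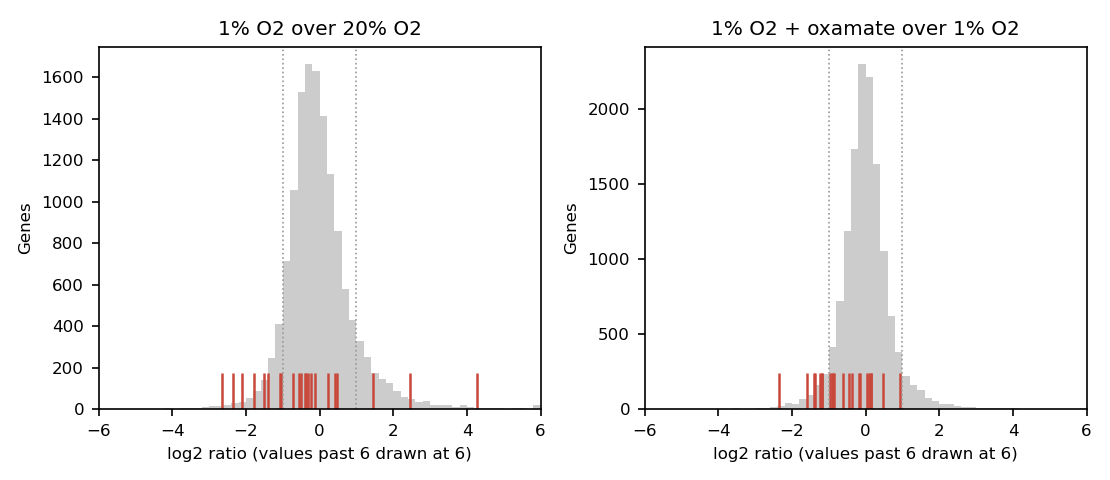
Histograms of the log2 ratio over all genes with at least 50 fragments in either library (grey, number of genes) for the step to 1% oxygen (left) and the step to oxamate (right), with 1 red tick for each of the 22 measured plasma protein entries. Dotted lines mark 2-fold. On the left the ticks reach from ORM1 with ORM2 at -2.65 to CP at 4.26, and on the right no tick passes the upper 2-fold line.

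**Figure D3:**
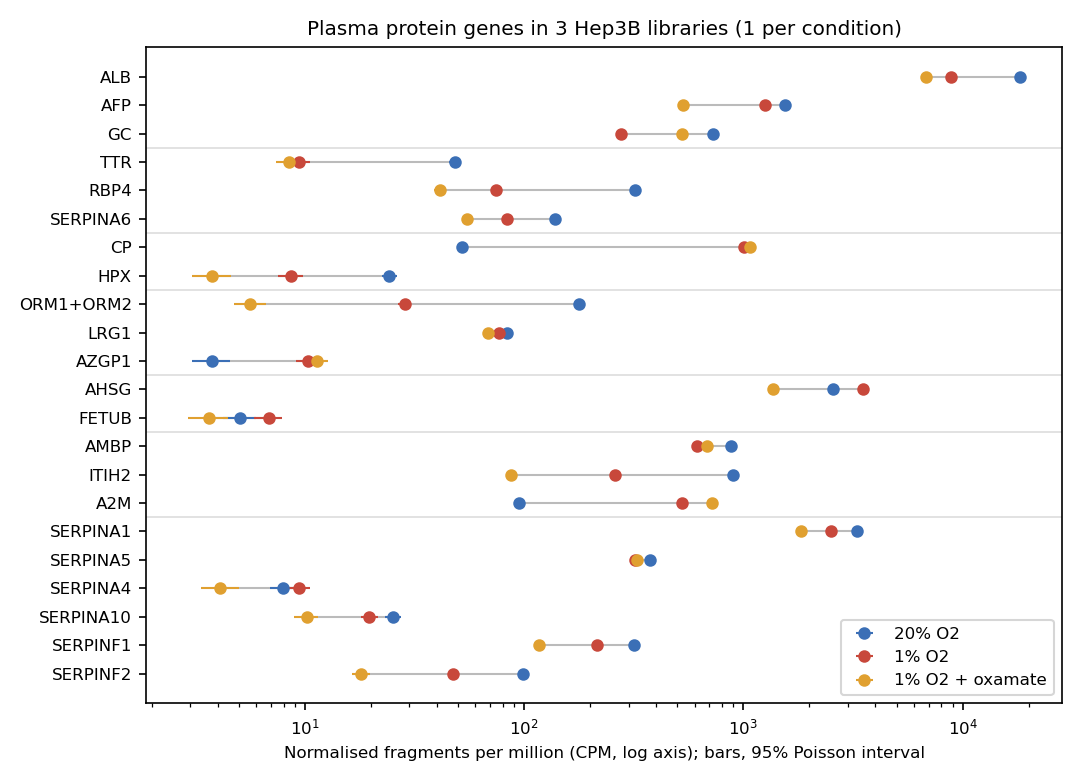
Level of each of the 22 measured entries in CPM (log axis) in 20% oxygen (blue), 1% oxygen (red) and 1% oxygen with oxamate (yellow), 1 library each, with 95% Poisson intervals. CP, A2M and AZGP1 lie lowest in 20% oxygen, while TTR, RBP4 and ORM1 with ORM2 lie far to the right there.

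The albumin family carriers were the most abundant group, and its 3 genes each took a different course. ALB, which sets the oncotic pressure of plasma and carries fatty acids and bilirubin, stood at 18295 CPM in 20% oxygen, 8888 in 1% oxygen and 6810 with oxamate. It was 2.06-fold lower (2.05 to 2.07) in 1% oxygen, just past the 2-fold rule, and a further 1.31-fold lower with oxamate. Scaled by total fragments the first difference was -0.88 on the log2 scale and under the rule. By FPKM, ALB ranked 8th of all genes in both libraries without oxamate and 13th with it. AFP, the fetal counterpart of albumin and a serum marker of hepatocellular carcinoma, was at 1553, 1252 and 530 CPM. AFP was thus 1.24-fold lower in 1% oxygen, under the rule, and a further 2.36-fold lower (2.31 to 2.41) with oxamate. GC, the vitamin D-binding protein that also scavenges actin, was at 728, 278 and 525 CPM. It was 2.62-fold lower (2.55 to 2.69) in 1% oxygen and 1.89-fold higher (1.83 to 1.94) with oxamate, the largest ratio above 1 of any measured entry in that step though under the rule.

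The balance inside this family therefore shifted between libraries. ALB exceeded AFP in FPKM by 11.0 times in 20% oxygen, 6.63 times in 1% oxygen and 12.0 times with oxamate. ALB exceeded GC by 15.3, 19.5 and 7.92 times in the same order. Such ratios within a library do not depend on scaling between libraries. The library from 1% oxygen was thus the one richest in AFP per ALB and poorest in GC per ALB.

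ALB and AFP lie head to tail on chromosome 4 (hg38, 73397114 to 73421482 and 73431138 to 73456174, both on the plus strand), with AFM next and GC further upstream on the minus strand. AFM, the gene of the vitamin E-binding afamin and no member of the set, was at 9.12, 1.34 and 0.880 CPM, 6.82-fold lower in 1% oxygen. RASSF6, further along, was at 4.21, 7.73 and 2.72 CPM. The sequences before the RefSeq starts of ALB and AFP are shown together with that of SERPINA1. These 3 were chosen as abundant genes of the set that share a motif, so they do not tie the motif to abundance. AHSG ranked above AFP and SERPINA1 by FPKM in all 3 libraries. The same stretch before AHSG lacks the motif, as does that before ORM1, and neither is printed. The motif is GTTAAT, one arm of the palindrome bound by the liver factor HNF1, in capitals below, in the 150 bases before the start (GRCh38.p14), read on the strand of the gene. The ALB stretch is chr4:73404137-73404286 (plus), the AFP stretch chr4:73436071-73436220 (plus) and the SERPINA1 stretch, before the second of 2 listed starts, chr14:94388603-94388752 (minus).
ALB: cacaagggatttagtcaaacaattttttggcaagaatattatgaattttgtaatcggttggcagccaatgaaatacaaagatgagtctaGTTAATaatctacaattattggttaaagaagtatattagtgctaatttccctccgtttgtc
AFP: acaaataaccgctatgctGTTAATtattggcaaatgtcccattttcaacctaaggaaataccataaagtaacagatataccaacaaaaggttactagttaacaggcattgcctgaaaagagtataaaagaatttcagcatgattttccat
SERPINA1: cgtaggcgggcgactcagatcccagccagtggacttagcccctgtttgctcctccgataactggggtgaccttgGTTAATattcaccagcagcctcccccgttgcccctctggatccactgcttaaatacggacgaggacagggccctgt

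With the base before the start as -1, GTTAAT lies at -61 to -56 in ALB, -132 to -127 in AFP and -76 to -71 in SERPINA1. RefSeq windows from 250 bases before to 50 after a start were at hand for 25 of the 36 genes, as 32 windows. GTTAAT, searched on both strands, was in 8 of those 25 genes: ALB, AFP, SAA4, SERPINA1, SERPINA4, SERPINA6, SERPINA7 and SERPINA10. Of all 27305 genes with windows, 8.27% held it. The windows of the set were poorer in G and C than all windows, with a median of 52.7% against 58.7%, and an AT-rich motif such as this one is read beside that difference. The holders include genes with high and with hardly any RNA here, since SAA4 had 6 fragments at most and SERPINA7 had 2. TTGCNNAA, a core bound by C/EBP proteins, was in 9 of the 25 genes and in 12.7% of all genes. ACGTG, the core of the hypoxia response element, was in ORM1 and SERPINA10 and in 24.9% of all genes, and GCGTG in 6 genes of the set and 40.6% of all. CP was among the 11 genes with no window at hand. A match is a stretch of letters in this window and is no evidence of binding.

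Of the 3 measured carriers of thyroid hormone, retinol and cortisol, 2 passed the rule in 1% oxygen, both lower, where 8.07% of all genes were, and none did with oxamate. TTR, transthyretin, which carries thyroxine and holds the retinol-binding protein in plasma, was at 48.2, 9.40 and 8.48 CPM. It was 5.13-fold lower (4.49 to 5.89) in 1% oxygen, and with oxamate its interval took in no difference (1.11-fold lower, 0.921 to 1.34). RBP4, the retinol carrier, was at 322, 74.7 and 41.3 CPM, 4.32-fold lower (4.11 to 4.53) in 1% oxygen and 1.81-fold lower (1.68 to 1.95) with oxamate. From 20% oxygen to oxamate, RBP4 was 7.80-fold lower and TTR 5.69-fold lower. SERPINA6, the cortisol-binding globulin, was at 139, 83.3 and 54.7 CPM, 1.66-fold lower and then 1.52-fold lower, each under the rule. SERPINA7, the thyroxine-binding globulin on chromosome X, had 2, 2 and 0 fragments.

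Among the haem, haemoglobin and copper binding proteins, the copper enzyme and the haem carrier moved in opposite directions. CP, ceruloplasmin, the copper-bearing ferroxidase that lets iron load onto transferrin, was at 52.3 CPM in 20% oxygen, 1004 in 1% oxygen and 1069 with oxamate. It was 19.2-fold higher (18.2 to 20.3) in 1% oxygen, the largest ratio of any measured entry in that step, and 1.06-fold higher with oxamate. By FPKM, CP ranked 5651st of all genes in 20% oxygen and 148th in 1% oxygen. Exons of CP (chromosome 3, 149162410 to 149221829, minus strand) overlap those of HPS3 on the other strand over 19.4% of their bases, and whether the counting used strand is not given in the sources used here. HPS3 itself was at 103, 113 and 120 CPM. CPHL1P, a pseudogene of the ceruloplasmin family next to CP and named after its values were seen, was at 2.32, 20.0 and 21.9 CPM. HPX, hemopexin, which binds free haem, was at 24.3, 8.60 and 3.76 CPM, 2.83-fold lower (2.43 to 3.30) in 1% oxygen and 2.29-fold lower (1.80 to 2.94) with oxamate. The second interval reaches below 2-fold. HP, haptoglobin, which binds free haemoglobin, had 19, 0 and 7 fragments, and 13.0% of the 100-base windows of its transcript also occur in HPR.

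Genes that work beside these carriers were listed too. TF, transferrin, the iron carrier that ceruloplasmin supplies, was at 1494, 5055 and 1706 CPM, so it was 3.38-fold higher in 1% oxygen and 2.96-fold lower with oxamate. TFR2, a transferrin receptor of hepatocytes, was at 3.60, 4.19 and 1.24 CPM. HMOX1, the haem-degrading enzyme, was at 35.3, 60.9 and 30.4 CPM. Of the 8 measured receptors and partners, TF alone passed the rule in 1% oxygen, and TF, TFR2 and HMOX1 passed it, all lower, with oxamate, where 10.8% of all genes were higher in the first step and 5.07% lower in the second. CP and TF were thus both higher in 1% oxygen, and with oxamate CP stayed within 1.06-fold while TF did not.

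The orosomucoids showed the largest difference of the set in the lower direction. ORM1 and ORM2 encode alpha-1-acid glycoprotein, a heavily glycosylated acute phase protein that binds basic drugs. Together they were at 178 CPM in 20% oxygen, 28.5 in 1% oxygen and 5.64 with oxamate. That is 6.26-fold lower (5.80 to 6.76) in the first step and 5.06-fold lower (4.22 to 6.09) in the second, and 31.6-fold lower (26.8 to 37.7) from 20% oxygen to oxamate. The fragments numbered 2836, 429 and 72 for ORM1 and 1778, 360 and 69 for ORM2. The 2 transcripts are alike at 95.92% of 760 aligned bases, so reads from one can be counted for the other or dropped. The stretches below are the 60 aligned bases where they differ most, with the 14 differing bases in capitals. They are bases 416 to 475 of the ORM1 and 374 to 433 of the ORM2 transcript, the longest protein-coding one of each gene in GENCODE 29, inside the open reading frames (79 to 684 and 37 to 642).
ORM1: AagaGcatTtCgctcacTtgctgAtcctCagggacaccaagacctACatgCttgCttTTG
ORM2: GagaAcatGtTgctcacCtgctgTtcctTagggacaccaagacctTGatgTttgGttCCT

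Kept apart, ORM1 exceeded ORM2 in FPKM 1.40 times (1.32 to 1.49) in 20% oxygen, and the ratio was 1.05 (0.909 to 1.21) in 1% oxygen and 0.918 (0.650 to 1.30) with oxamate. Both genes were lower in both steps when counted alone, with log2 ratios of -2.82 and -2.43 for ORM1 and -2.40 and -2.24 for ORM2. COL27A1, which lies between AMBP and ORM1 on chromosome 9, was at 224, 190 and 223 CPM, and AMBP on its other side was at 882, 615 and 680 CPM.

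Of the other plasma glycoproteins, LRG1, a leucine-rich glycoprotein raised in inflammation, differed little, at 83.2, 76.7 and 68.3 CPM. AZGP1, zinc-alpha-2-glycoprotein, an MHC-like protein linked to fat mobilisation, was at 3.75, 10.3 and 11.3 CPM. It was 2.74-fold higher (2.17 to 3.48) in 1% oxygen and 1.10-fold higher (0.928 to 1.30) with oxamate. A1BG had 3, 7 and 12 fragments, and 50.9% of its exon bases lie in another annotated gene.

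Both measured fetuins had ratios above 1 in 1% oxygen, under the rule, and AHSG was lower with oxamate. AHSG, fetuin-A, which keeps calcium phosphate soluble in plasma, was at 2553, 3518 and 1360 CPM. It was 1.38-fold higher (1.36 to 1.39) in 1% oxygen and 2.59-fold lower (2.56 to 2.62) with oxamate. FETUB, fetuin-B, its neighbour on chromosome 3 and an inhibitor of astacin proteases, was at 5.06, 6.83 and 3.64 CPM. Its ratios were 1.35 (1.07 to 1.70) and, with oxamate, 1.88-fold lower (1.45 to 2.44). AHSG exceeded FETUB 461, 470 and 341 times in FPKM, so the pair kept nearly the same ratio in both libraries without oxamate. HRG, histidine-rich glycoprotein, which follows FETUB, had 10, 20 and 28 fragments. KNG1, the kininogen gene after HRG and outside the set, was at 69.9, 21.4 and 12.8 CPM, 3.26-fold lower in 1% oxygen. ALB exceeded AHSG in FPKM 4.63 times in 20% oxygen and 1.63 times in 1% oxygen.

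Inter-alpha-trypsin inhibitor is assembled from a light chain, bikunin, and heavy chains, and the genes of its parts differed. AMBP, which encodes bikunin fused to alpha-1-microglobulin, was at 882, 615 and 680 CPM, 1.43-fold lower and then 1.11-fold higher. ITIH2, a heavy chain, was at 898, 261 and 87.3 CPM. It was 3.44-fold lower (3.35 to 3.53) in 1% oxygen and 3.00-fold lower (2.85 to 3.14) with oxamate, and 10.3-fold lower (9.85 to 10.8) across both. In FPKM, AMBP exceeded ITIH2 by 1.72 times in 20% oxygen, 4.13 times in 1% oxygen and 13.7 times with oxamate. The other heavy chains, ITIH1, ITIH3 and ITIH4, had at most 11, 24 and 4 fragments in any library, so ITIH2 was the one heavy chain measured. A2M, alpha-2-macroglobulin, a broad protease trap, was at 95.1, 523 and 723 CPM. It was 5.50-fold higher (5.27 to 5.74) in 1% oxygen and 1.38-fold higher (1.35 to 1.41) with oxamate. A2M-AS1 on the other strand covers 8.79% of A2M exon bases, and PZP, its near paralog, had 3 to 5 fragments.

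Of the 6 measured serpins that carry no hormone, SERPINF2 alone passed the rule in 1% oxygen, where 8.07% of all genes were lower. SERPINF2 and SERPINA4 passed it with oxamate, both lower, where 5.07% of all genes were. SERPINA1, alpha-1-antitrypsin, which protects the lung from neutrophil elastase, was at 3315, 2513 and 1833 CPM, 1.32-fold lower (1.31 to 1.33) and then 1.37-fold lower (1.35 to 1.39). SERPINA5, the protein C inhibitor, was at 377, 322 and 328 CPM, the serpin that differed least. Those 2 abundant serpins stayed under the rule in all 3 contrasts.

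SERPINF2, alpha-2-antiplasmin, which blocks plasmin, was at 99.1, 47.3 and 18.0 CPM. It was 2.10-fold lower (1.96 to 2.24) in 1% oxygen and 2.62-fold lower (2.36 to 2.93) with oxamate. The first of these falls under the rule when libraries are scaled by total fragments (-0.91 on the log2 scale). SERPINF1, pigment epithelium-derived factor, an antiangiogenic serpin that inhibits no protease, lies beside it on chromosome 17. It was at 318, 216 and 117 CPM, 1.48-fold and then 1.85-fold lower, and 2.73-fold lower (2.61 to 2.85) from 20% oxygen to oxamate. The FPKM ratio of SERPINF1 to SERPINF2 went from 2.52 to 3.58 and 5.08, so these neighbours were both lower without moving in step.

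SERPINA4, kallistatin, an inhibitor of tissue kallikrein, was at 7.96, 9.36 and 4.12 CPM. Its level in 1% oxygen had an interval that took in no difference (ratio 1.18, 0.975 to 1.42), and it was 2.27-fold lower (1.80 to 2.88) with oxamate. SERPINA10, the protein Z-dependent inhibitor of factor Xa, was at 25.2, 19.7 and 10.2 CPM, 1.28-fold and then 1.94-fold lower (1.67 to 2.26). SERPINA3, alpha-1-antichymotrypsin, had 10, 1 and 6 fragments, although it lies next to the well-expressed SERPINA5 in the cluster on chromosome 14. Among the genes of that cluster with at least 50 fragments in some library, the log2 ratios in 1% oxygen ranged from -0.73 for SERPINA6 to 0.23 for SERPINA4, and SERPINA9 and SERPINA11 had no fragment in any library.

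**Figure D4:**
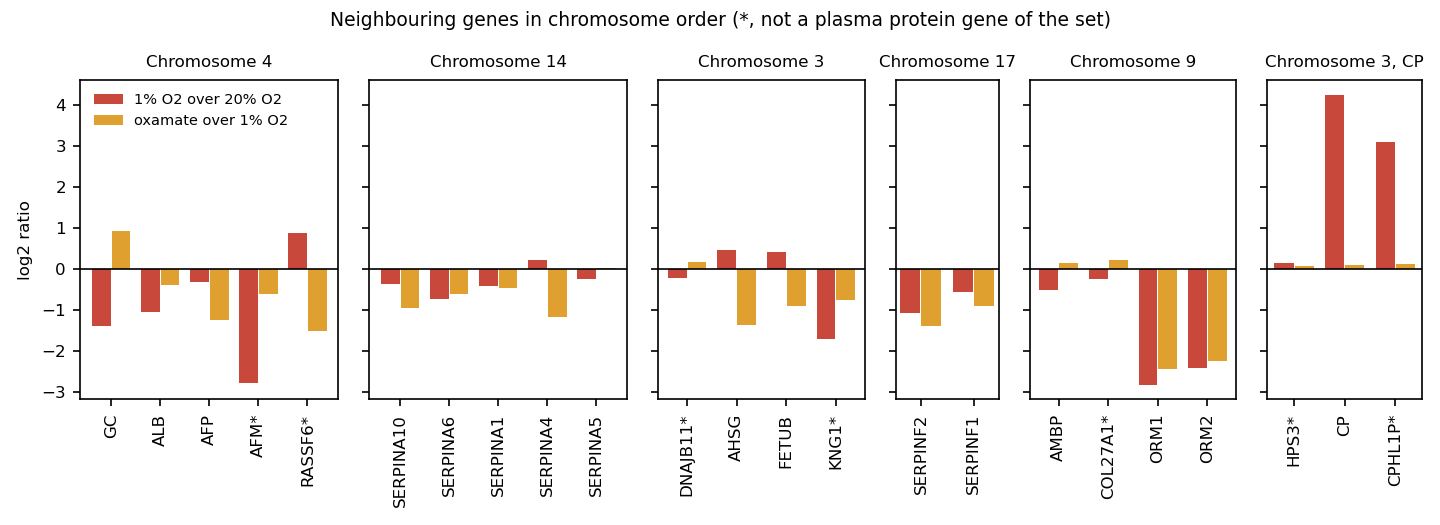
log2 ratios of neighbouring genes, in chromosome order within each panel, for 1% oxygen over 20% oxygen (red bars) and oxamate over 1% oxygen (yellow bars); genes with an asterisk are outside the set, and genes with fewer than 50 fragments in every library are left out. ORM1 and ORM2 go together below 0 in both steps, whereas GC, ALB and AFP each have another pair of bars.

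Several classical acute phase genes had next to no RNA in these cells. CRP and SAA2 had 0 fragments in every library, where the limit of 3 fragments that a count of 0 allows is 0.116, 0.108 and 0.120 CPM, and the upper bound of the 2-sided 95% Poisson interval is 0.143, 0.133 and 0.147 CPM. SAA1 had 1 fragment, in the oxamate library. SAA4 had 0, 0 and 6 fragments and APCS, the serum amyloid P component, 0, 0 and 18, which is 0.720 CPM with oxamate. With HP, SERPINA3, SERPINA7, A1BG, ITIH1, ITIH3, ITIH4 and HRG, 13 of the 36 genes stayed under 50 fragments in every library, and no fold is given for them. Exons of SAA4, A1BG, ITIH4 and SERPINA3 overlap other annotated genes over 31.8% to 74.4% of their bases. The overlapping genes on the same strand held 32 fragments or fewer, and those on the other strand were not counted here.

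Grouped by their response in inflammation, the positive and the negative acute phase proteins both held entries that were lower in 1% oxygen. Of 5 measured positive entries, CP was higher and ORM1 with ORM2 and HPX were lower in 1% oxygen, and SERPINA1 and LRG1 were neither. Of 7 measured negative genes, ALB, TTR, RBP4 and ITIH2 were lower, none was higher, and AHSG, SERPINA6 and SERPINA4 were neither. These counts stand beside 10.8% higher and 8.07% lower over all genes. The medians were -0.40 and -1.04 on the log2 scale in 1% oxygen, and -0.46 and -0.85 with oxamate.

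**Figure D5:**
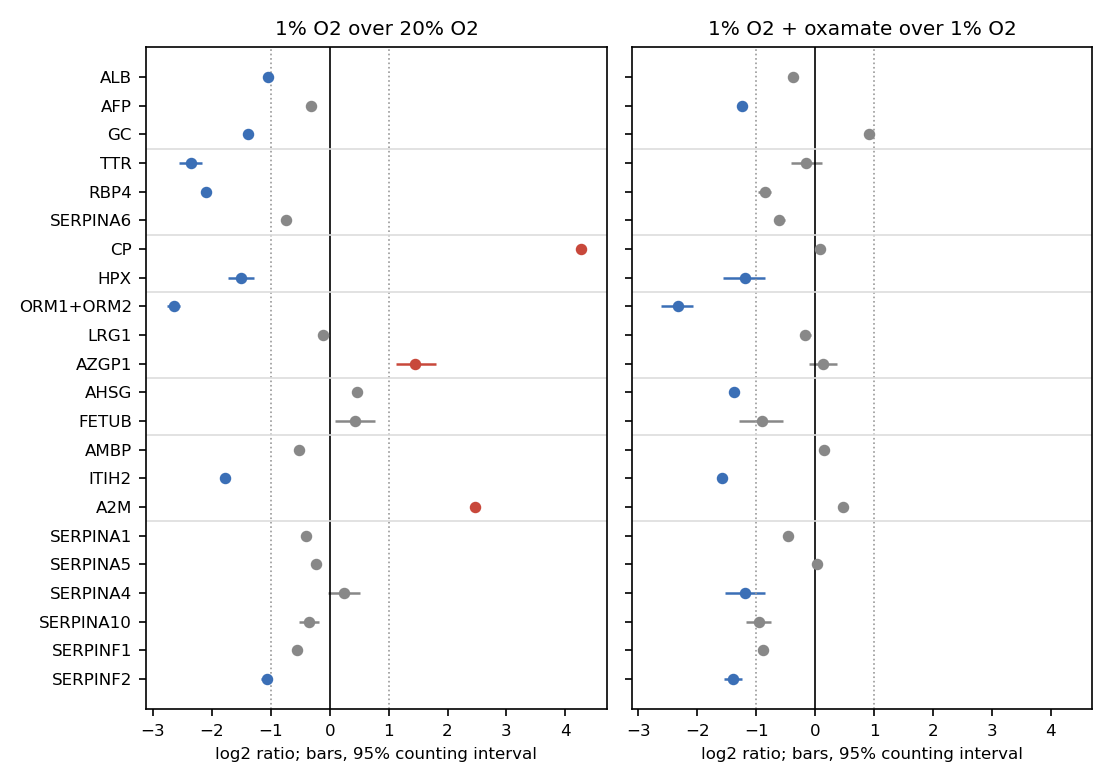
log2 ratio of each measured entry for 1% oxygen over 20% oxygen (left) and oxamate over 1% oxygen (right), with 95% counting intervals; red is at least 2-fold higher, blue at least 2-fold lower, grey neither, and dotted lines mark 2-fold. CP stands alone at 4.26 on the left, ORM1 with ORM2 is lowest in both panels, and the right panel holds no red point.

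Other acute phase genes from the liver, outside the set, were counted the same way: 3 of 10 measured were higher and 3 lower in 1% oxygen, and 2 were higher and 5 lower with oxamate. The shares over all genes were 10.8% and 8.07%, then 5.92% and 5.07%. FGB, the fibrinogen beta chain, was at 76.0, 21.8 and 4.44 CPM, 3.49-fold and then 4.91-fold lower. PTX3, a long pentraxin, was at 0.193, 1.77 and 32.1 CPM, so a relative of CRP and APCS was present with oxamate while CRP was not detected.

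Among 11 other serpins measured, 4 were higher and none lower in 1% oxygen, and 2 were higher and 2 lower with oxamate. SERPINE2, protease nexin-1, was at 0.657, 20.2 and 16.9 CPM. SERPING1, the C1 inhibitor, which is also on the list of other acute phase genes, was at 0.928, 6.97 and 14.3 CPM. AGT, angiotensinogen, a serpin with no inhibitory function, was at 553, 287 and 70.4 CPM, 1.93-fold lower and then 4.08-fold lower. Over all genes, 10.8% were higher and 8.07% lower in 1% oxygen, and 5.92% and 5.07% with oxamate.

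Of 18 liver transcription factors, 2 were higher and 3 lower in 1% oxygen, and 1 was higher and 1 lower with oxamate. These counts were near the shares over all genes (10.8% and 8.07%, then 5.92% and 5.07%), apart from the 3 lower ones. CEBPA, which drives hepatocyte genes, was at 235, 108 and 19.8 CPM, 2.18-fold and then 5.43-fold lower. Other annotated genes overlap 43.4% of CEBPA exon bases and 49.7% of those of ZBTB20, so part of their fragments can belong to those genes. ZHX2 and ZBTB20, both known as repressors of AFP after birth, were at 62.7, 244 and 216 CPM and at 3.29, 28.5 and 32.7 CPM, 3.90-fold and 8.68-fold higher in 1% oxygen. AFP was 1.24-fold lower in that step. With oxamate against 1% oxygen, AFP was 2.36-fold lower, while the ratios of ZHX2 and ZBTB20 were 0.884 and 1.15. A link between these 2 genes and AFP was not tested. NR1H4, the bile acid receptor, was at 48.6, 22.1 and 15.0 CPM.

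Of 20 measured genes of IL-6 and IL-1 signalling, 2 were higher and 4 lower in 1% oxygen, and 4 were higher and none lower with oxamate. The shares over all genes were 10.8% and 8.07%, then 5.92% and 5.07%, so the count of higher genes in 1% oxygen was near the background. IL6R, the IL-6 receptor, was at 31.6, 5.96 and 12.2 CPM. NFKBIZ, an inducible regulator of NF-kB target genes, was at 83.3, 24.7 and 70.4 CPM. IL1B was at 0.696, 10.9 and 7.52 CPM, and SOCS1, an inhibitor of cytokine signalling, at 3.40, 0.903 and 0.400 CPM. None of the 18 listed genes for folding and export of secreted proteins passed the rule in either step, with medians of -0.34 and -0.02 on the log2 scale. With oxamate against 20% oxygen, 1 of them was higher and 2 were lower, where 15.4% and 15.3% of all genes were.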

How the data were processed

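Hep3B libraries of poly(A) RNA represent 3 conditions, 1 library each. The authors deposited 1 table per library with an FPKM value per gene. The tables do not name the unit, which was read from the values: multiplied by exon length, 100% of them were whole multiples of 1 constant per library within 0.01. Tools named in the submitters' processing notes, without their roles, are edgeR 3.22.5, featureCounts 1.5.0-p3, HISAT2 2.0.5 and StringTie 1.3.3b, and the build is hg38. Neither the strand setting nor the annotation release is given in the sources used here.

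The whole fragments recovered from the deposited FPKM were brought to a common scale with a trimmed mean of M values. It trimmed 30% and 5%, over genes that reached 10 fragments in the 3 libraries together. The code was written in numpy 2.4.6, scipy 1.17.1 and pandas 2.3.3 under Python 3.11.15, and run on simulated libraries. Those shared the same expression profile apart from a small set of genes changed evenly in both directions. They therefore do not check the scaling for libraries that differ as widely as these. The factors were 0.944, 1.05 and 1.01. Ratios have 95% exact conditional binomial (Clopper-Pearson) intervals. List medians use a prior count of 0.5 and entries with 50 fragments or more in either library. The set and all lists were chosen with earlier results of these data known. All genes of the set are named. Of other lists, up to 4 genes past the rule are named, by the interval bound farthest from no difference, with neighbours in a gene cluster; 1 gene that this rule takes is not reported here. Exon overlap comes from GENCODE 29, and promoter windows from RefSeq (GRCh38.p14). The alternatives tried are given in the closing section.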

Additional observations from a re-analysis of the deposited data

How the results depend on the processing

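Across the alternatives run, 9 of the 11 entries called in 1% oxygen against 20% oxygen, 5 of the 7 called with oxamate against 1% oxygen and all 14 called with oxamate against 20% oxygen passed the size rule under every one that measured them. ALB lost its call in 1% oxygen under total-fragment scaling (-0.88 on the log2 scale) and with the length trend removed (-0.92). SERPINF2 lost it under both (-0.91 and -0.88) and under a rule that asks the full interval to lie past 2-fold. HPX and SERPINA4 lost theirs with oxamate under that interval rule, and SERPINA10 gained one under total-fragment scaling (-1.02), which moved the median of all genes in 1% oxygen from -0.11 to 0.04.

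Without the genes that share exons or have a copy, which include CP, A2M and AZGP1, 0 of 14 measured entries were higher in 1% oxygen and 0 with oxamate against 20% oxygen. A minimum of 10 fragments gave 1 entry higher with oxamate against 1% oxygen, APCS, and 7 higher against 20% oxygen. A 1.5-fold rule gave 1 entry higher, GC, and 12 lower with oxamate against 1% oxygen. Leaving mitochondrial genes out of the total put the share of the set at 3.09%, 2.21% and 1.55%. A GC trend was removed using GENCODE 29 transcripts, an alternative chosen after seeing the data, and it changed no call.

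No paired analysis was possible because each condition has 1 library. Genes under 50 fragments are limited by depth, and the spread between cultures is not known.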
